A study of Mus musculus with 12 samples.

Results

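The receptors, co-receptors and transcription factors of the Hedgehog pathway were followed through mouse medulloblastomas, tumours of the cerebellum, of the Sonic Hedgehog (SHH) subgroup. The 9 members were chosen by gene symbol in the deposited probe annotation: Ptch1, Smo, Hhip, Boc, Cdon, Sufu, Gli1, Gli2 and Gli3. They were carried by 19 of the 45281 probes on the Illumina arrays, which held 30869 gene symbols in all. Of these 19 probes, 15 probes of 8 genes gave a signal above the median of their array on at least 4 of 12 arrays and were tested, and 4 probes did not.

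In the Hedgehog pathway, the ligand binds the membrane receptor Ptch1 together with co-receptors such as Boc and Cdon, and this releases Smo, a membrane protein that Ptch1 otherwise holds inactive. Active Smo acts at the primary cilium, where Sufu binds and restrains the Gli transcription factors. Gli2 is mainly an activator, Gli3 mainly a repressor and Gli1 an activator whose gene is itself a target, and Ptch1 and Hhip are targets that dampen the pathway. In the cerebellum, SHH from Purkinje neurons drives granule neuron progenitors to divide, and mice with 1 mutant Ptch1 allele develop medulloblastoma from these cells.

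The study compared medulloblastomas driven by ATOH1 together with abnormal SHH signalling, primary and metastatic, with those of Ptch1 heterozygotes. In Math1-cre;A1G;Ptch1+/- mice, 4 arrays measured primary and 4 measured metastatic tumours, called A1G primary and A1G metastatic below. The other 4 held tumours of Ptch1+/- mice, called Ptch1het. All 12 tumours thus came from mice with 1 mutant Ptch1 allele, and no normal cerebellum or tumour with both alleles intact was among them. Math1 is another name of Atoh1, and in Math1-cre mice its regulatory sequence drives Cre recombinase, in granule neuron progenitors among other cells. What A1G stands for, where the metastases grew and how old the mice were is not in the labels. The genotype field of metastatic replicates 2 and 3 names the same alleles as that of replicates 1 and 4 but also states the tumour type, so the fits were repeated with only replicates 1 and 4. Whether each array is a mouse of its own is not stated either, so the p-values reflect sample-to-sample spread that may in part be technical.

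The probe for eGFP gave a mean log2 signal of 12.28 ± 0.61 in primary and 12.15 ± 0.92 in metastatic A1G tumours, and 7.58 ± 0.40 in Ptch1het tumours (SD, n = 4). Summed signals of 6 measured granule progenitor and tumour cell markers ran from 26100 to 35400 on the linear scale over the 12 arrays, with 0 of 6 called in each of the 3 comparisons by limma (1 with an unadjusted p under 0.05, primary minus Ptch1het), although Atoh1 itself was above the median on 0 arrays. Sums of 8 peripheral sensory neuron markers were 23800 to 57000 in A1G metastatic tumours, 1110 to 1520 in A1G primary tumours and 1010 to 2320 in Ptch1het tumours. Sums of 8 Schwann cell markers were 28500 to 83000, 5750 to 19800 and 3530 to 16600 in the same order of groups, and those of 9 fibroblast markers 30300 to 44800, 7320 to 14000 and 9610 to 19800. Sums of 4 skeletal muscle markers were 953 to 50200, 471 to 1020 and 587 to 1390, and those of 6 endothelial and mural markers 8730 to 62300, 2020 to 4310 and 1910 to 5800. The brightest of these 6 was Acta2, with a mean log2 signal of 13.72 in metastatic and 10.68 in primary tumours. Pecam1, Cdh5 and Pdgfrb also had higher metastatic than primary means, whereas those of Kdr (7.40 against 7.64) and Rgs5 (7.81 against 8.01) were lower. Sums of 5 oligodendrocyte precursor markers were lowest in the metastatic tumours, at 9360 to 17100 against 19500 to 24900 in A1G primary and 14000 to 22900 in Ptch1het tumours. Sums of 6 astrocyte and Bergmann glia markers were 10900 to 22000, 21300 to 41200 and 12400 to 44200. Slc1a3, by far the brightest of them, had a mean log2 signal of 13.24 in metastatic and 14.56 in primary tumours. Metastatic means of Aqp4 and Aldh1l1 were also lower. Those of Gdf10 (10.12 against 9.16) and S100b (7.61 against 6.83) were higher, and Gfap was level (11.2 against 11.18). Sums of 4 microglia and macrophage markers were 4910 to 5930, 2460 to 4870 and 2810 to 4710. Metastatic against primary, genes called higher were 8 of 8 sensory neuron, 4 of 8 Schwann cell, 7 of 9 fibroblast, 4 of 4 muscle and 3 of 6 endothelial markers, and 3 of 5 precursor and 1 of 6 astrocyte markers were called lower, with 0 of 4 microglia markers called (2 at an unadjusted p under 0.05). Metastatic against Ptch1het, these counts were 8 of 8 sensory neuron, 6 of 8 Schwann cell, 6 of 9 fibroblast, 4 of 4 muscle, 3 of 6 endothelial and 1 of 4 microglia markers higher and 1 of 6 astrocyte markers lower, with 0 of 5 precursor markers called (2 at an unadjusted p under 0.05). Of all tested probes, limma called 4.82% metastatic minus primary, 8.8% metastatic minus Ptch1het and 0.0245% primary minus Ptch1het. An unadjusted p under 0.05 was found for 17.8%, 26.8% and 13.2% of them in the same order. The part of the cell types of these lists in the metastatic comparisons below was not tested.

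The members Hhip, Cdon and Sufu each had a probe that passed the test between A1G metastatic and Ptch1het tumours, so the 250 bases upstream of their start sites are shown, 5′ to 3′ on the strand of the gene, from RefSeq on GRCm38.p6. They lie at chr8:80058009-80058258 on the minus strand for Hhip, chr9:35451826-35452075 on the plus strand for Cdon and chr19:46396646-46396895 on the plus strand for Sufu. Capitals mark CpG dinucleotides, the bases at which mammalian DNA is methylated.
Hhip: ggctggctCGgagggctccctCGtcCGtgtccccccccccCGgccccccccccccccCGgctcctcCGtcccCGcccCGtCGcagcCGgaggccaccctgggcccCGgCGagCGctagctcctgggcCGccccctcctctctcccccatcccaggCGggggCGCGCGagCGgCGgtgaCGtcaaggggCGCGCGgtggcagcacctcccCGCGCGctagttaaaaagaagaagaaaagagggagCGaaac
Cdon: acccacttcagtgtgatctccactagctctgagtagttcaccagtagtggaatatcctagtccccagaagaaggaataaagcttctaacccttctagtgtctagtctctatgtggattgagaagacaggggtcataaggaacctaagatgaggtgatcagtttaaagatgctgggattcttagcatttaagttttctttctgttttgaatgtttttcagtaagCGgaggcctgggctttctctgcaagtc
Sufu: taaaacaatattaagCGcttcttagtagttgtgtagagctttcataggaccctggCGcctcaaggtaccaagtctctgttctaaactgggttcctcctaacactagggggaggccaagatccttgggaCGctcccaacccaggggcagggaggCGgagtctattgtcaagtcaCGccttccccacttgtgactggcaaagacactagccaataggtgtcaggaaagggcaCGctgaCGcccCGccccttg
The Hhip sequence held 28 CpG and 76% G or C, that of Sufu 8 and 54%, and that of Cdon 1 and 42.8%. Over all 32851 mouse promoters of the same length the medians were 6 CpG and 52.4%. The other members with a RefSeq promoter were CpG-rich: Ptch1 with 41 CpG, Gli3 with 34, Gli2 with 22 and Smo with 15. The Gli binding motif GACCACCCA, or TGGGTGGTC on the other strand, was present in 0 of these 7 promoters and in 0.225% of all (74 promoters). This says only that these letters are not in these windows.

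Among the receptors, Ptch1 (chromosome 13), the receptor whose mutant allele all these mice carry, was read by 2 probes. The brighter one, ILMN_2460224, read 11.57, 10.79, 11.08 and 10.69 in A1G primary tumours 1 to 4, 11.62, 9.99, 10.73 and 10.41 in A1G metastatic tumours, and 11.30, 11.14, 11.01 and 11.33 in Ptch1het tumours (log2 signal). The Ptch1het tumours lay between 11.01 and 11.33, whereas metastatic tumours 1 and 2 were the highest and the lowest of all 12 arrays, and the groups overlapped. The log2 difference was -0.35 metastatic minus primary (SE 0.29, adjusted p = 0.587), -0.16 primary minus Ptch1het (SE 0.29, adjusted p = 0.842) and -0.51 metastatic minus Ptch1het (SE 0.29, adjusted p = 0.287). Without A1G metastatic tumour 1, the last difference was -0.82 and passed the test (adjusted p = 0.0476). The second probe, ILMN_1248463, ran from 6.78 to 7.77 around the array median of 7.05 and differed by at most 0.19 between group means. Which stretch of Ptch1 the mutant allele lacks is not given in the labels, nor where the probes lie in it in the annotation used, so these levels do not check the genotype.

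Smo (chromosome 6), which transmits the signal, was read by 3 probes well above the median in every tumour. Its probe ILMN_2986978 read 11.05, 10.51, 10.35 and 10.39 in A1G primary, 11.22, 10.16, 10.59 and 10.35 in A1G metastatic and 10.91, 10.54, 10.51 and 10.84 in Ptch1het tumours. The groups overlapped, and primary tumour 1 and metastatic tumour 1 were the highest in their groups, as they were for the brighter Ptch1 probe. Metastatic minus primary, the 3 Smo probes differed by 0.01, -0.21 and -0.28, each with a 95% interval that spans 0, the widest for ILMN_2741614 from -0.91 to 0.49. Their group means differed by no more than 0.36 in any comparison, and the smallest adjusted p was 0.489.

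Hhip (chromosome 8), a membrane protein that binds the ligand and takes it away from Ptch1, gave a lower signal in A1G than in Ptch1het tumours. Probe ILMN_2684250 read 7.94, 7.69, 7.54 and 8.21 in A1G primary, 7.87, 7.22, 7.52 and 7.77 in A1G metastatic and 8.58, 9.02, 8.94 and 8.75 in Ptch1het tumours. All 8 A1G tumours lay below all 4 Ptch1het tumours, a pattern that 1.67% of all tested probes shared and 0.757% showed in the opposite direction. The group means were 7.84 ± 0.29, 7.60 ± 0.29 and 8.82 ± 0.20 (SD, n = 4). Metastatic minus Ptch1het, Hhip fell by 1.22 on the log2 scale (SE 0.19, 2.34-fold, adjusted p = 0.00143), and it passed the test in all 19 alternative settings. Primary minus Ptch1het, the difference was -0.98 (SE 0.19, 95% interval -1.38 to -0.58) but did not pass over all probes (adjusted p = 0.123). Metastatic minus primary it was -0.25 (SE 0.19, adjusted p = 0.531), with overlapping groups. In these bulk samples, fewer cells of a type and less RNA per cell cannot be told apart. Between A1G primary and Ptch1het tumours limma called 0 of 56 tested entries of the 9 marker lists (6 at an unadjusted p under 0.05). Of all probes it called 0.0245%, with 13.2% unadjusted, so 0 calls do not show an equal cell make-up. Gpr17 (means 10.54 and 8.42), Sox10 (11.68 and 10.36) and Rgs5 (8.01 and 7.32) were higher in every A1G primary than in any Ptch1het tumour. Tnnt3 (6.4 and 6.76) and Atp2a1 (7.0 and 7.47) were lower in every one. The part of the cells they mark in the Hhip difference was not tested.

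**Figure D1:**
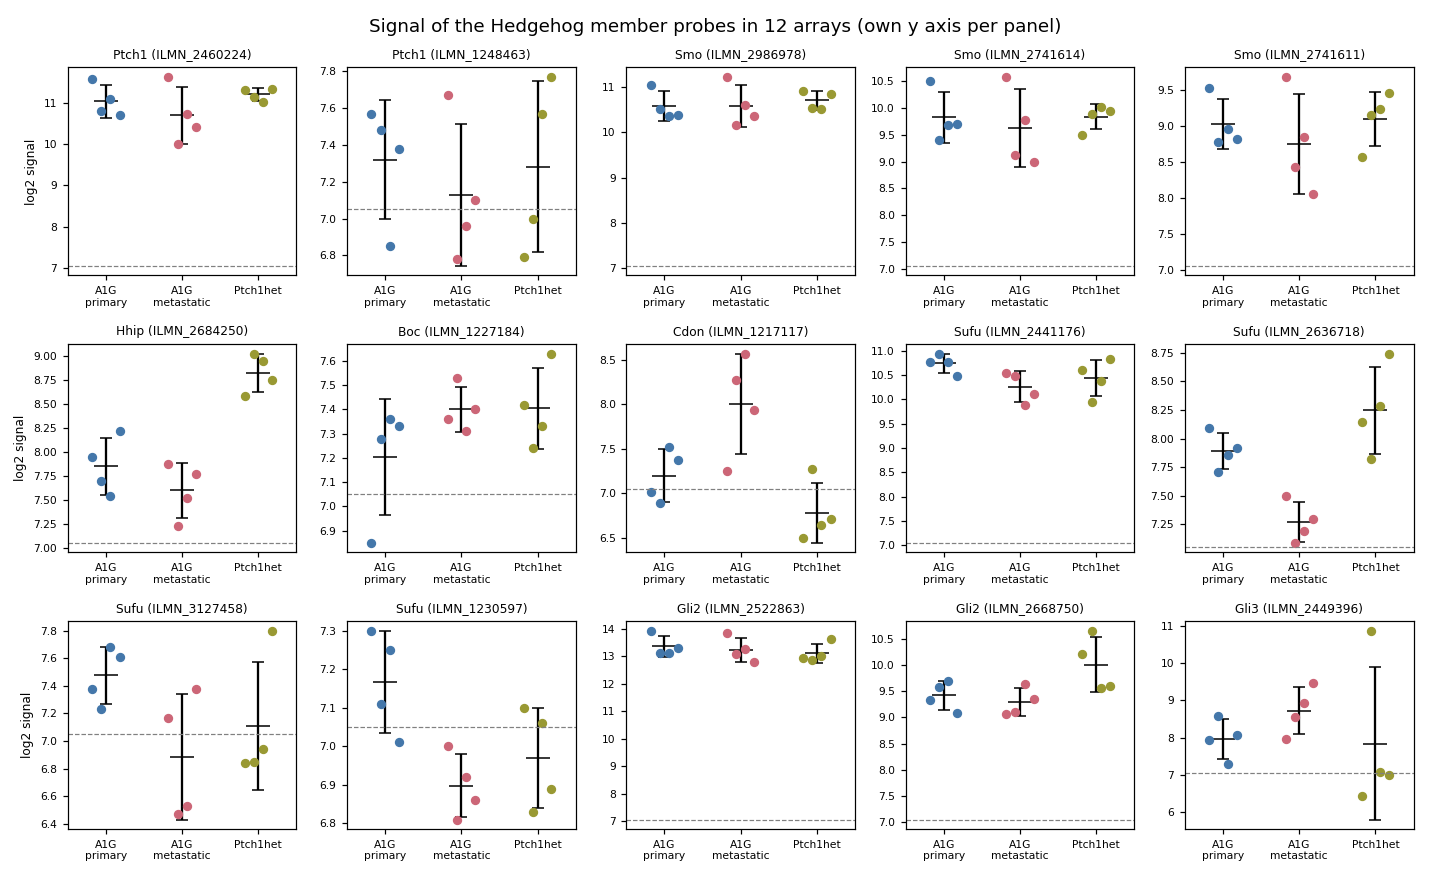
Log2 signal (y axis, its own scale in each panel) of the 15 tested member probes in the 3 groups of tumours (x axis); points are the 4 arrays of a group, bars the mean and SD, and the dashed line the array median of 7.05. Hhip reads at or above 8.58 in every Ptch1het tumour and at or below 8.21 in every A1G tumour, and the Gli3 point at 10.87 is Ptch1het tumour 2.

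The co-receptors Boc and Cdon are related immunoglobulin-domain membrane proteins that bind the ligand, and Cdon is also known from muscle differentiation. Cdon (chromosome 9) probe ILMN_1217117 read 7.01, 6.89, 7.52 and 7.37 in A1G primary, 7.25, 8.27, 8.56 and 7.93 in A1G metastatic and 6.50, 7.27, 6.64 and 6.71 in Ptch1het tumours. It was above the array median in 2 primary, 4 metastatic and 1 Ptch1het tumours, and metastatic tumour 1 overlapped with both other groups. Metastatic minus Ptch1het, Cdon rose by 1.22 on the log2 scale, from 6.78 ± 0.34 to 8.0 ± 0.56 (SE 0.26, adjusted p = 0.0133), and no fold is given because the lower mean was under the array median. Without the metastatic tumours the probe was above the median on 3 arrays and would not have met the filter, so it was tested through the group in which it was high; it also passed with no filter on dim probes. That call was lost with only metastatic replicates 1 and 4 (difference 0.82, adjusted p = 0.139).

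Metastatic minus primary, the Cdon difference was 0.81 (SE 0.26, adjusted p = 0.117), and it was positive in 4 of 4 pairs of equal replicate number, at 0.24, 1.38, 1.04 and 0.57. With the number as a block the adjusted p was 0.0759, and 0.0433 when only these 8 arrays entered the blocked fit, an alternative added after the data were seen. Without metastatic tumour 1 the difference was 1.06 and passed (adjusted p = 0.0205). Of the marker sums given above, the fibroblast, Schwann cell and sensory neuron sums were higher in every metastatic tumour than in any other tumour. The muscle sums were 30500, 50200, 953 and 10400 in metastatic tumours 1 to 4, against at most 1020 in primary and 1390 in Ptch1het tumours. Metastatic tumour 3, with the lowest of these 4 muscle sums, held the highest Cdon value. The part of these cell types in the Cdon signal was not tested. The second Cdon probe, ILMN_2727643, was above the median on 0 arrays (5.86 to 6.44), so the Cdon result rests on 1 probe.

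Boc (chromosome 16) was read just above the median by probe ILMN_1227184, at 6.85, 7.28, 7.36 and 7.33 in A1G primary, 7.36, 7.53, 7.31 and 7.40 in A1G metastatic and 7.42, 7.24, 7.33 and 7.63 in Ptch1het tumours. The groups overlapped and the differences were 0.20, -0.20 and -0.01 in the comparisons metastatic minus primary, primary minus Ptch1het and metastatic minus Ptch1het (adjusted p = 0.521, 0.552 and 0.979). Probe ILMN_1241005 of Boc was above the median on 0 arrays, with signals of 5.74 to 6.51.

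Sufu (chromosome 19), which holds Gli proteins inactive in the cytoplasm, was read by 4 probes, and all 4 gave lower means in A1G metastatic than in A1G primary tumours. Probe ILMN_2636718, annotated to transcript variant 2, read 8.09, 7.71, 7.86 and 7.92 in A1G primary, 7.5, 7.09, 7.19 and 7.30 in A1G metastatic and 8.14, 7.82, 8.28 and 8.74 in Ptch1het tumours. Every metastatic tumour lay below every tumour of the other groups. Metastatic minus Ptch1het, this probe fell by 0.97 on the log2 scale, from 8.24 ± 0.38 to 7.27 ± 0.18 (SE 0.18, 1.97-fold, adjusted p = 0.00608). With only metastatic replicates 1 and 4 that call was lost (difference -0.84, adjusted p = 0.0836). The other 3 Sufu probes differed by -0.18, -0.22 and -0.07 in that comparison and did not pass (adjusted p = 0.611, 0.604 and 0.73), and a difference between the probes was not tested.

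Metastatic minus primary, Sufu probe ILMN_2636718 differed by -0.63 (SE 0.18, 1.55-fold lower, adjusted p = 0.075). Paired by number, its differences were -0.59, -0.62, -0.68 and -0.62, and with the number as a block it passed (adjusted p = 0.0485). It also passed when only these 8 arrays were fitted, without the block (adjusted p = 0.0276) and with it (adjusted p = 0.0188, added after the data were seen). Probe ILMN_2441176 read 10.78, 10.94, 10.78 and 10.48 in primary and 10.55, 10.49, 9.89 and 10.12 in metastatic tumours, with 10.60, 9.95, 10.38 and 10.83 in Ptch1het tumours. Its groups overlapped, the difference was -0.48 (SE 0.20, adjusted p = 0.235), and its paired differences of -0.23, -0.45, -0.89 and -0.36 were all negative.

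The variant 1 probe of Sufu, ILMN_3127458, read 7.38, 7.23, 7.68 and 7.61 in primary, 7.17, 6.47, 6.53 and 7.38 in metastatic and 6.84, 6.85, 6.94 and 7.80 in Ptch1het tumours. It differed by -0.59 metastatic minus primary (SE 0.25, adjusted p = 0.245), with overlapping groups. Probe ILMN_1230597 was not above the array median in any metastatic tumour (6.81 to 7.0) and read 7.01 to 7.30 in primary tumours. Its difference was -0.27 metastatic minus primary (SE 0.12, adjusted p = 0.268), and its primary mean lay 1.09-fold above the array median. The 4 probes are readings of 1 gene in the same tumours and are no replicates of each other. A lower signal in all 4 number pairs was found for 5 of 15 member probes, the 4 of Sufu and that of Hhip, against 20.6% of all probes, and a higher one for the Cdon probe alone, against 12.6%.

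**Figure D2:**
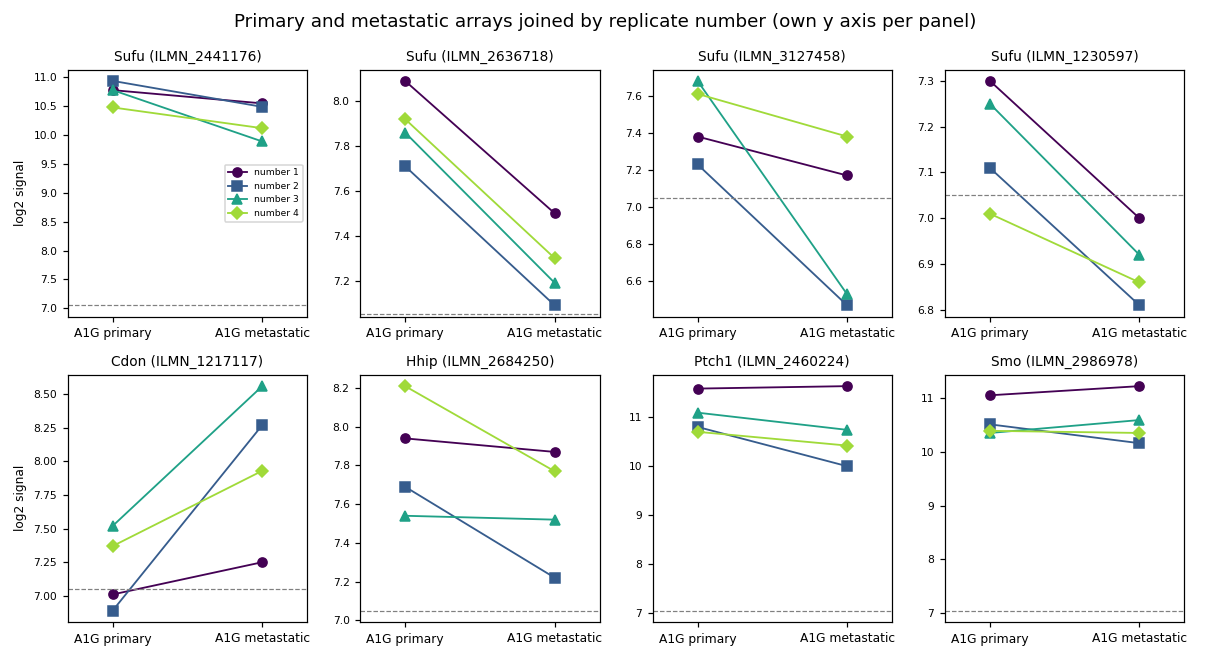
Log2 signal (y axis, own scale in each panel) of 8 member probes in A1G primary and A1G metastatic tumours (x axis), with tumours of equal replicate number joined by a line and the array median of 7.05 dashed. All 4 lines slope down in each Sufu panel and up in the Cdon panel, while the Ptch1 and Smo lines run in both directions.

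Of the Gli factors, Gli1 (chromosome 10), the target gene most often used as a readout of the pathway, was not measurable. Its only probe, ILMN_2774992, was above the array median on 0 arrays, with signals of 5.80 to 6.66 and means of 6.14 in primary and 6.26 in metastatic A1G tumours. It was not tested.

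Gli2 (chromosome 1), the main activator, was read by 2 probes that did not go the same way. Probe ILMN_2522863 read 13.94, 13.12, 13.13 and 13.30 in A1G primary, 13.84, 13.08, 13.26 and 12.81 in A1G metastatic and 12.93, 12.85, 13.02 and 13.63 in Ptch1het tumours. Probe ILMN_2668750 read 9.34, 9.59, 9.70 and 9.08 in A1G primary, 9.07, 9.10, 9.64 and 9.35 in A1G metastatic and 10.21, 10.66, 9.57 and 9.60 in Ptch1het tumours. The groups overlapped for both probes, and the higher Ptch1het mean of the second rests on tumours 1 and 2.

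The first Gli2 probe differed by 0.27 primary minus Ptch1het and by 0.14 metastatic minus Ptch1het (adjusted p = 0.666 and 0.752). The second differed by -0.59 and -0.72 (SE 0.24 each, adjusted p = 0.341 and 0.0806). Metastatic minus primary they differed by -0.13 and -0.14 (adjusted p = 0.835 and 0.817). No Gli2 value passed the test, and the opposite signs against Ptch1het leave no single direction for the gene.

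Gli3 (chromosome 13), mainly a repressor, varied most of all members. Probe ILMN_2449396 read 7.93, 8.57, 7.28 and 8.08 in A1G primary, 7.95, 8.56, 8.92 and 9.47 in A1G metastatic and 6.42, 10.87, 7.07 and 7.0 in Ptch1het tumours. Ptch1het tumour 2 held the highest value of all arrays while tumour 1 of the same group held the lowest, a range of 4.45. The within-group SD was 1.27, against a median of 0.27 over all tested probes and 0.27 for Hhip. Metastatic minus Ptch1het, Gli3 differed by 0.89 (SE 0.76, adjusted p = 0.479) with all arrays and by 1.90 without Ptch1het tumour 2, when it passed (adjusted p = 0.00665). Primary minus Ptch1het, the difference was 0.12 with all arrays and 1.13 without that tumour (adjusted p = 0.962 and 0.353). The summed astrocyte and Bergmann glia markers were also highest in Ptch1het tumour 2, at 44200 against 33200, 23600 and 12400 in tumours 1, 3 and 4. Slc1a3, by far the brightest of these markers, read 14.8, 15.15, 14.37 and 13.38 in Ptch1het tumours 1 to 4. Tumour 1, with the sum of 33200, held the lowest Gli3 value. Metastatic tumours had sums of 10900 to 22000 and a Gli3 mean of 8.73, and primary tumours 21300 to 41200 and 7.96. The part of these cells in the Gli3 value was not tested. Probe ILMN_1215183 of Gli3 was above the median on 0 arrays (6.20 to 6.83).

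**Figure D3:**
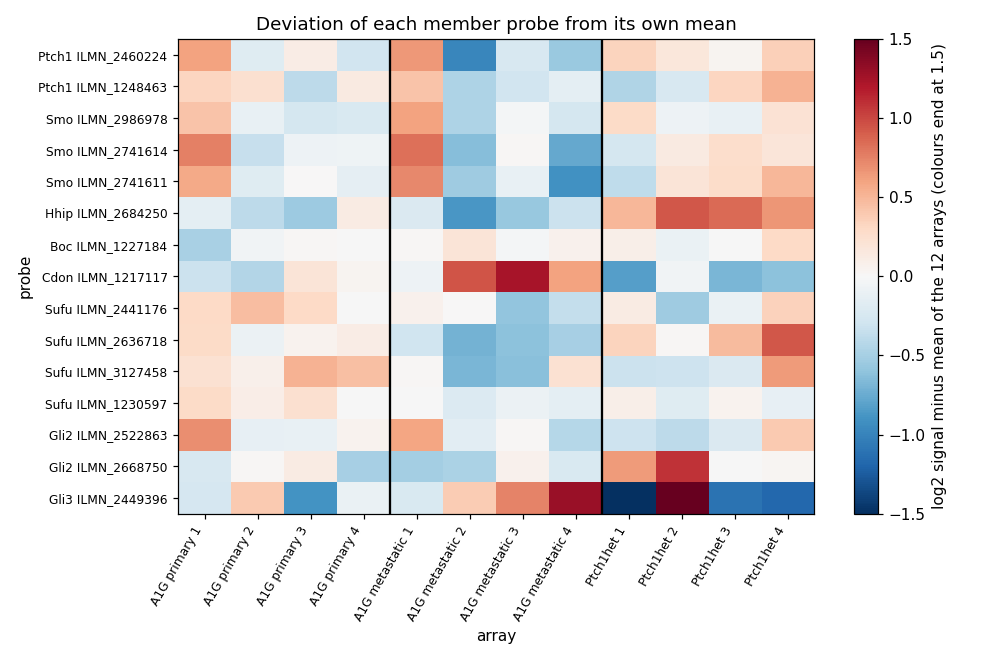
Deviation of each member probe (rows) from its own mean over the 12 arrays (columns, in 3 groups), in log2 units, with colours that end at 1.5 either way. The Hhip row is above its mean in the 4 Ptch1het tumours, and the Gli3 row holds both the largest positive and the largest negative deviation, in Ptch1het tumours 2 and 1.

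Counted over the members, metastatic minus primary gave 0 of 15 probes past the adjusted threshold of 0.05 in limma, where 4.82% of all tested probes passed, and 5 of 15 with an unadjusted p under 0.05, Cdon and the 4 Sufu probes, where 17.8% did. The tumours did not overlap for 2 of 15, both Sufu probes and both lower, against 6.7% of all probes that were lower without overlap. The median member difference was -0.21 against -0.08 over all probes. Primary minus Ptch1het gave 0 of 15 past the adjusted and 2 of 15 past the unadjusted threshold, the probes of Hhip and Gli2, against 0.0245% and 13.2% of all probes, with a median of -0.01 against -0.02. Hhip alone did not overlap, lower in A1G primary tumours, as 3.95% of all probes were.

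Metastatic minus Ptch1het, where genotype and tumour site both differ, gave 3 of 15 past the adjusted threshold, against 8.8% of all probes. Hhip and 1 Sufu probe were lower, as 3.44% of all probes were. Cdon, whose probe met the filter through the metastatic tumours, was higher, as 5.36% were. An unadjusted p under 0.05 was found for 4 of 15, against 26.8%. The groups did not overlap for 2 of 15, the same Hhip and Sufu probes, against 7.91% of all probes that were lower without overlap. The median was -0.18 against -0.09. The 3 comparisons share their arrays, so Hhip and Sufu calls against Ptch1het are not independent of the values against the other A1G group.

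**Figure D4:**
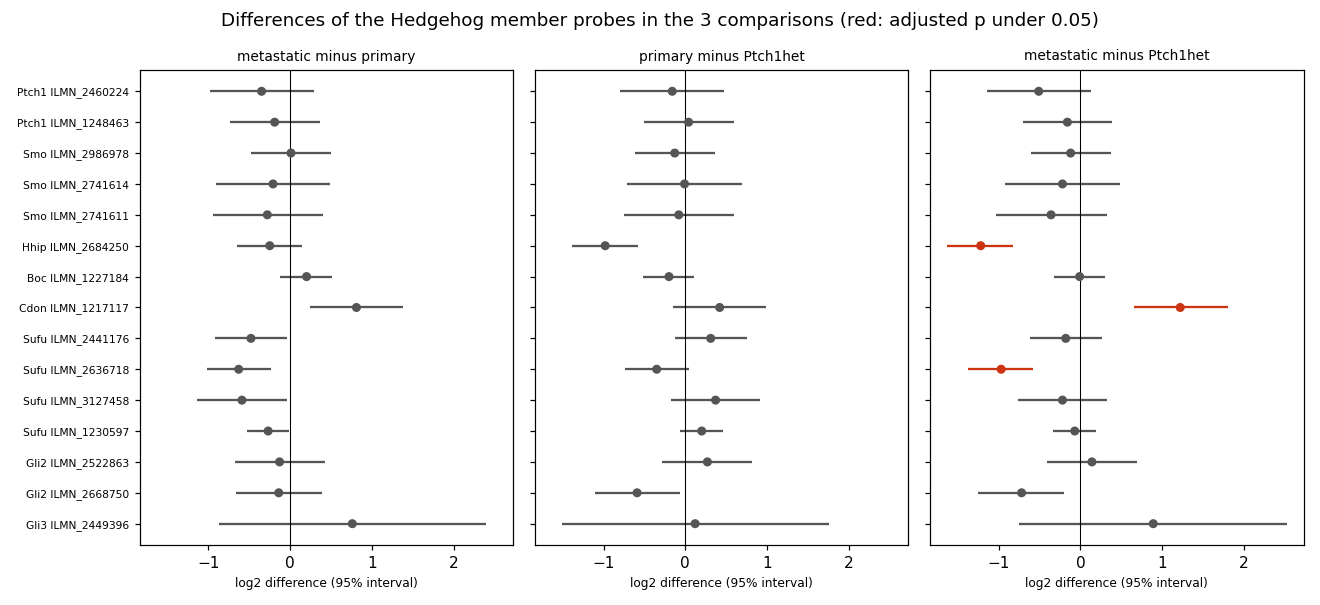
Log2 difference (x axis, with 95% intervals from limma) of each of the 15 tested member probes (y axis) in the 3 comparisons, with those of adjusted p under 0.05 in red. Red points are found in the metastatic minus Ptch1het panel alone, for Hhip at -1.22, Cdon at 1.22 and Sufu ILMN_2636718 at -0.97, and the Gli3 intervals are the widest.

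The genes whose probes followed each member most closely over the 12 arrays are given as a description, as Pearson's r among 24428 other tested probes. For Hhip these were LOC383872 (0.96) and Pgam5 (0.94), for Cdon Smtn (0.96) and Tmed10 (0.95), and for Sufu ILMN_2441176 Rab11fip2 (0.95) and E130308A19Rik (0.92). For Ptch1 they were 4921531P07Rik and Ick (both 0.93), for Smo Trim8 (0.95) and Rpo1-4 (0.94), and for Boc Plxna2 (0.97) and 9630024J24Rik (0.84). Gli2 ILMN_2522863 was followed by Fam159b (0.93) and Fbxo10 (0.91), and Gli3 by Ptges (0.95) and G630016D24Rik (0.92). All points share arrays and normalization, and each r is the highest of a search over all these probes.

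Among the ligands and the proteins that release them, 5 of 9 genes were tested, and Shh, Dhh and Disp1 were called higher in metastatic tumours against both other groups. The probes of Shh and Dhh passed the filter through the metastatic tumours alone, so a difference was built into their selection, and the count of called genes in this list is a description. Shh (ILMN_2610013), the ligand for which the tumour subgroup is named, read 6.54, 6.57, 6.15 and 6.43 in A1G primary, 9.32, 8.65, 8.09 and 8.94 in A1G metastatic and 6.10, 6.17, 6.44 and 6.12 in Ptch1het tumours. It was above the array median in the 4 metastatic tumours alone, at least 3.25-fold higher there (adjusted p = 3.31e-05 against primary and 1.53e-05 against Ptch1het). A second Shh probe, ILMN_2802979, did not pass (log2 difference 0.51 against primary, adjusted p = 0.254).

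Dhh (ILMN_2595664), the ligand that Schwann cells of peripheral nerve make, read 6.62, 6.16, 6.02 and 6.64 in A1G primary, 10.32, 10.44, 10.23 and 9.83 in A1G metastatic and 6.28, 6.82, 6.90 and 6.69 in Ptch1het tumours. The metastatic tumours were at least 8.93-fold higher (adjusted p = 1.32e-07 against primary and 3.26e-07 against Ptch1het). The Schwann cell and sensory neuron marker sums given above were highest in these same 4 tumours, and their part in the ligand signal was not tested. Disp1, which releases the lipid-bound ligand from cells, rose by 0.65 against primary (SE 0.14, adjusted p = 0.017) and by 0.61 against Ptch1het tumours (adjusted p = 0.0181). Without A1G primary tumour 1 or 3 the first call was lost (adjusted p = 0.054 and 0.0528), and with only metastatic replicates 1 and 4 both were (0.124 and 0.0985).

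Of 6 receptors and co-receptors outside the members, 4 were tested and 1 passed in metastatic tumours against primary and against Ptch1het. Of all probes, 4.82% and 8.8% passed in these comparisons. The gene was Gpc3, a glypican of the cell surface that binds the ligand. Its probe ILMN_2832979 read 10.48, 10.12, 10.07 and 10.10 in A1G primary, 10.70, 10.78, 11.05 and 11.19 in A1G metastatic and 10.01, 10.58, 10.41 and 9.89 in Ptch1het tumours. The metastatic tumours were above all others, by 0.74 against primary (SE 0.18, adjusted p = 0.0331) and 0.71 against Ptch1het (SE 0.18, adjusted p = 0.0297), but the former did not pass with the replicate block (adjusted p = 0.064). It also lost the call without metastatic tumour 2, 3 or 4 or primary tumour 2, 3 or 4, with adjusted p from 0.0582 to 0.0998. Against Ptch1het it lost it without metastatic tumour 2, 3 or 4 or Ptch1het tumour 1 or 4, with adjusted p from 0.0554 to 0.089. With only metastatic replicates 1 and 4 neither call held (0.187 and 0.128), nor did the latter with only the 8 arrays compared (0.068). Gas1, another co-receptor, was above the median on 0 arrays.

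Over all tested probes, limma called 4.82% metastatic minus primary and 8.8% metastatic minus Ptch1het, and 17.8% and 26.8% had an unadjusted p under 0.05. Of 23 genes of the cilium and Gli processing, 19 were tested. Metastatic minus primary, limma called 0 of 19 (0 at an unadjusted p under 0.05 too), and 1 passed metastatic minus Ptch1het, the beta-arrestin Arrb1 (ILMN_3096335, 0.74, SE 0.18, adjusted p = 0.0237), whose call was lost without metastatic tumour 2 or 4 or Ptch1het tumour 1 or 2 (0.051 to 0.0822) and with only the 8 arrays compared (0.0664). Its probes ILMN_1229853 and ILMN_1233970 differed by 0.65 and 0.11 and did not pass (adjusted p = 0.0597 and 0.756), and the mean of its probes differed by 0.50 (adjusted p = 0.0751). Of 13 Hedgehog-responsive genes of granule progenitors, 11 were tested, 0 passed metastatic minus primary (2 at an unadjusted p under 0.05) and 2 passed metastatic minus Ptch1het. Bmi1, a Polycomb protein of dividing progenitors, read 10.28, 8.94, 9.69 and 10.09 in A1G metastatic tumours, below all tumours of the other groups, which began at 10.45. It fell by 0.95 against Ptch1het (SE 0.25, adjusted p = 0.0351) and differed by -0.93 from primary tumours (adjusted p = 0.053). Against Ptch1het the call was lost without metastatic tumour 2 or 3 or Ptch1het tumour 3 or 4 (0.0592 to 0.0836) and with only the 8 arrays compared (0.0861). With only metastatic replicates 1 and 4 the difference was -0.51 (adjusted p = 0.189). Against primary it was gained without metastatic tumour 1 (0.0241) and with the block on these 8 arrays (0.0469).

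Sfrp1, a secreted Wnt antagonist, passed with probe ILMN_1231689 (0.61, SE 0.17, adjusted p = 0.0399) while its probe ILMN_2604282 differed by -0.54 (adjusted p = 0.595), so the gene has no single direction. That call was lost without any metastatic tumour in turn or without Ptch1het tumour 1, 3 or 4 (0.0541 to 0.1), and with the mean of its probes the difference was 0.03 (adjusted p = 0.954). Ccnd1, cyclin D1, read 14.15, 14.03 and 14.17 in A1G primary, A1G metastatic and Ptch1het tumours (ILMN_1221503) and did not pass in any comparison, and Mycn was above the median on 0 arrays. Primary minus Ptch1het, limma called 0 of 39 tested genes of these 4 lists (7 at an unadjusted p under 0.05), against 0.0245% and 13.2% of all probes. The median log2 differences metastatic minus primary were 0.02 for the co-receptor list, -0.02 for the cilium list and -0.10 for the responsive genes, against -0.08 over all probes.

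**Figure D5:**
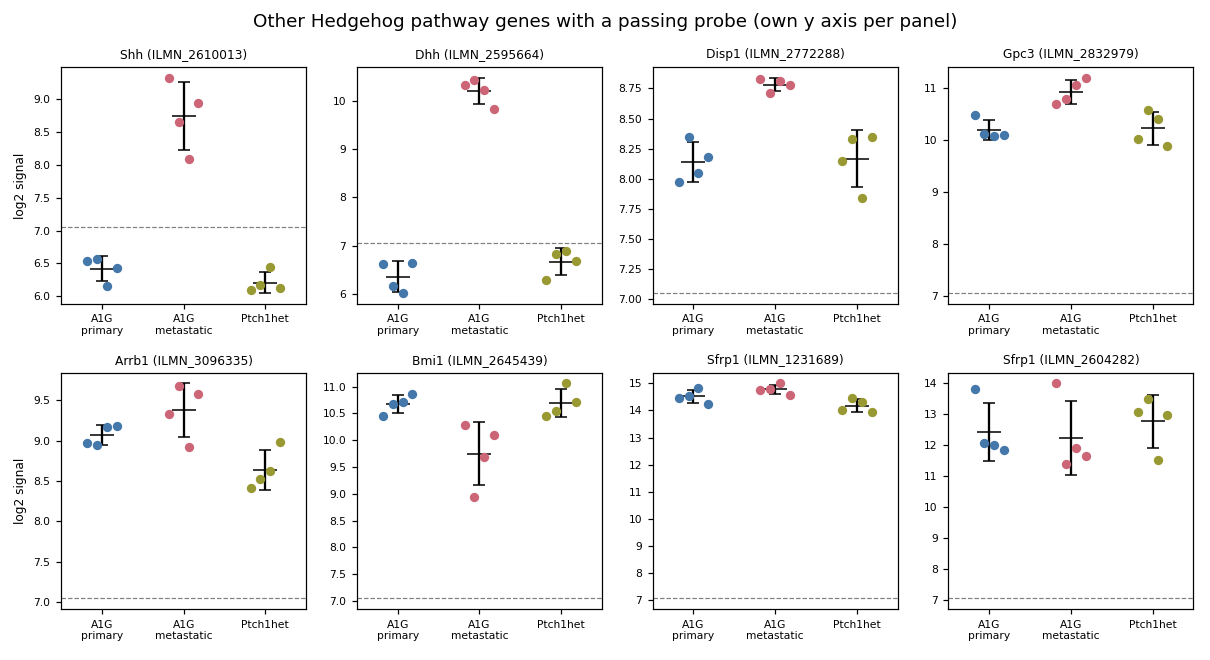
Log2 signal (y axis, own scale in each panel) of 8 probes of other Hedgehog pathway genes in the 3 groups of tumours (x axis); points are arrays, bars the mean and SD of 4 arrays, and the dashed line the array median of 7.05. Shh and Dhh are above that line in the metastatic tumours alone, and the 2 Sfrp1 probes differ in the order of their group means.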

How the data were processed

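RNA of 12 tumours was labelled as biotinylated cRNA and measured on Illumina arrays, per the labels' protocols. Linear probe intensity was deposited, normalized between arrays by the authors, as equal medians of 187 show, by a method that the sources used here do not give. The lowest value, 94.8, shows that background was not subtracted. A second deposited table gave the probe annotation. Its 24 per-array columns, named by chip position, match no sample label and were not used, so neqc and chip as a batch could not be run.

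With limma 3.58.1 in R 4.3.3, normexp (offset 50), quantile normalization and a log2 transform were applied. Probes above their array's median (7.05) on at least 4 of 12 arrays, 24443 or 54%, entered 1 model of 3 groups (9 residual and 3.93 prior degrees of freedom), with Benjamini-Hochberg adjustment over all of them and a threshold of 0.05. A list gene is represented by its brightest passing probe. For a group with 0 arrays above the median, a fold is a bound against that median. The number of arrays limits the precision.

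The members, the 4 pathway and 9 marker lists and the tests were chosen with earlier results of these data known. Every member is named, every list gene with a called probe, and Gas1, Mycn, Ccnd1, Sfrp1 and Atoh1 whatever their values. A gene that met this rule is not reported here. A1G primary and metastatic tumours of equal replicate number deviated together (correlation 0.45, 0.17, 0.20 and 0.28 over probes, after removal of group means). The number was taken to pair them, on this correlation and no label. With metastatic tumours of another number, the highest correlations of primary tumours 1 to 4 were 0.07, 0.14, -0.04 and 0.16. A1G primary tumour 4 and Ptch1het tumour 4, of different genotypes, correlated at 0.33, so the correlation does not single out A1G pairs. No paired differences were taken with Ptch1het tumours. In the fits with the replicate number as a block on all arrays, Ptch1het tumours shared a block with A1G tumours of equal number.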

Additional observations from a re-analysis of the deposited data

Results flagged for a closer look

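In 45 sets of 4 arrays (15 member probes in 3 groups), 3 sets held an array far from the other 3 by Dixon's test, where chance gives about 1 in 20. A1G primary tumour 1 read 6.85 for Boc ILMN_1227184 against 7.28 to 7.36 in the others, and without it the Boc difference metastatic minus primary was 0.08 (adjusted p = 0.814). Ptch1het tumour 4 read 7.80 for Sufu ILMN_3127458 against 6.84 to 6.94, and without it the difference metastatic minus Ptch1het was 0.01 (adjusted p = 0.986). Ptch1het tumour 2 read 10.87 for Gli3 ILMN_2449396 against 6.42 to 7.07, and without it the difference metastatic minus Ptch1het was 1.90 (adjusted p = 0.00665).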

How the results depend on the processing

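Over the 15 member probes and the tested probes of the 7 pathway genes with a call, 1374 values under an alternative stayed on the same side of the threshold, 17 gained and 43 lost the call, and 0 calls changed sign. Hhip metastatic minus Ptch1het kept its call in all 19 alternatives run (-1.4 to -1.0). With the replicate number as a block, 1 member probe was called metastatic minus primary, 3 metastatic minus Ptch1het and 0 primary minus Ptch1het, and 1314, 2497 and 5 probes in all; beside Sufu ILMN_2636718 and Gpc3 metastatic minus primary and Arrb1 ILMN_1229853 metastatic minus Ptch1het (adjusted p = 0.0417), the block changed no call on 12 arrays. With the block on only the 8 arrays compared, added after the data were seen, 2 member probes and 2197 probes were called metastatic minus primary. With those 8 arrays and no block, 1 member probe was called, and metastatic minus Ptch1het 1280 probes were, against 2150. With only metastatic replicates 1 and 4, 533 probes were called against primary, down from 1179, and 733 with 1 member probe against Ptch1het. Limiting the test to probes above the median on all 12 arrays left 532 metastatic minus primary and 3 primary minus Ptch1het, against 6. Leaving out 1 array in turn gave 0 to 1 member probes and 783 to 1141 probes metastatic minus primary, 3 to 4 and 1031 to 2224 metastatic minus Ptch1het, and 0 and 4 to 43 primary minus Ptch1het. The lowest counts came without metastatic tumour 2 (783 and 1031), and metastatic minus Ptch1het gave 1292 without metastatic tumour 4. Primary minus Ptch1het gave 10 without Ptch1het tumour 2 and 43 without Ptch1het tumour 4. Fewer samples or fewer probes tested enter these alternatives; beyond that the cause was not tested. The sources used here do not tie tumours to chips. Probes near the array median, such as those of Boc, Cdon and 3 of Sufu, are limited by signal over background, and 4 arrays a group limit all of them.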
